A study of Mus musculus with 12 samples.

Results

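The forkhead (Fox) genes were examined across the differentiation of mouse embryonic stem (ES) cells with retinoic acid. ES cells are pluripotent cells cultured from the early embryo, and retinoic acid, made from vitamin A, is the ligand of nuclear receptors that switch on developmental genes. The members are the 39 genes whose array symbol is Fox followed by 1 letter and a number, leaving out Foxa2 and Foxh1, of 21179 named genes in all. Foxf1, listed on the array under its older symbol Foxf1a, is among them. The 39 genes had 58 probes: 27 genes had 1 probe and 12 had several, and each gene is given by its brightest probe unless another is named. Total RNA was measured on 1-colour Cy3 arrays in ES cells treated with retinoic acid for 3 days and in undifferentiated ES cells, with 3 biological samples in each of the 2 groups and 2 technical arrays per sample. The cell line, the culture conditions and the dose of retinoic acid are not given in the sources used here, nor is it said whether replicates stem from different cultures; p-values therefore reflect sample spread that may be technical.

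Fox proteins are transcription factors that share the forkhead domain, a winged-helix fold that binds DNA. Lettered classes differ in where they act: class A factors open chromatin for endoderm genes, class C and F factors act in mesoderm and mesenchyme, class D factors in stem cells, neural crest and kidney stroma, class O factors answer to insulin and AKT signalling, and FOXM1 drives genes of cell division. In ES cells Foxd3 is best known for its part in keeping the pluripotent state, while many other members are known as markers of tissues that form later.

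The 12 arrays had medians of 37.4 to 96.6 in net intensity over 41174 probes, and between 53.8% and 85.0% of the probes exceeded the background limit of their array, the 95th percentile of its 27 negative control spots. The small number of arrays limits the precision. Marker genes were read against both labels. All 12 pluripotency genes tested were lower after retinoic acid, with Nanog at 9.95 ± 0.33 in retinoic acid samples and 13.62 ± 0.31 in undifferentiated samples (log2 intensity, SD, n = 3 each). Of 9 genes of the retinoic acid response tested, 6 were higher and 3 not called. Called were 66.7% of them, against 32.3% of all genes tested. The 3 not called were Rarb (-0.27 ± 0.24, SE; 0.94 on a second probe), Stra6 (-0.27 ± 0.53, SE) and Hoxb1 (-0.48 ± 0.69, SE). Each was above background on 6 of 6 undifferentiated arrays. Cyp26a1, whose product degrades retinoic acid, differed by 8.04 ± 0.18 (log2, SE).

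Values are log2 of the quantile-normalized intensity with 50 added, which understates the fold changes of dim genes. For a gene to be tested, its probe had to exceed background on 4 or more of 6 arrays in 1 group, and called when its adjusted p in the limma fit over all 15326 genes tested was under 0.05. Of the 39 Fox genes 30 were tested, and 10 of these were called (33.3%), where 32.3% of all genes tested were called. After retinoic acid 8 Fox genes were higher (26.7%, against 18.7% of all genes tested) and 2 were lower (6.67%, against 13.6%). The share called is thus close to that of all genes, and the median log2 difference of the 30 tested Fox genes was 0.06, against 0.0035 over all genes tested. In the 10 called genes the values of the 2 groups did not overlap, which held for 99.7% of all called genes. The array measures bulk RNA, so a change in the share of cells that express a gene and a change in RNA per cell cannot be told apart.

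Detection divided the family. Of the 30 tested genes 19 passed the limit in both groups, 8 through the retinoic acid arrays alone and 3 through the undifferentiated arrays alone. Among the 19 genes seen in both groups 2 were higher (Foxm1 among them), 1 was lower (Foxn2) and 16 were not called. Of the 8 that passed through the retinoic acid arrays alone, 6 were higher (Foxa1, Foxc1, Foxc2, Foxd1, Foxf2 and Foxp2), and of the 3 that passed through the undifferentiated arrays alone, Foxd3 was lower. A gene admitted through 1 group could hardly differ the other way, so these 2 classes carry no weight as counts.

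**Figure D1:**
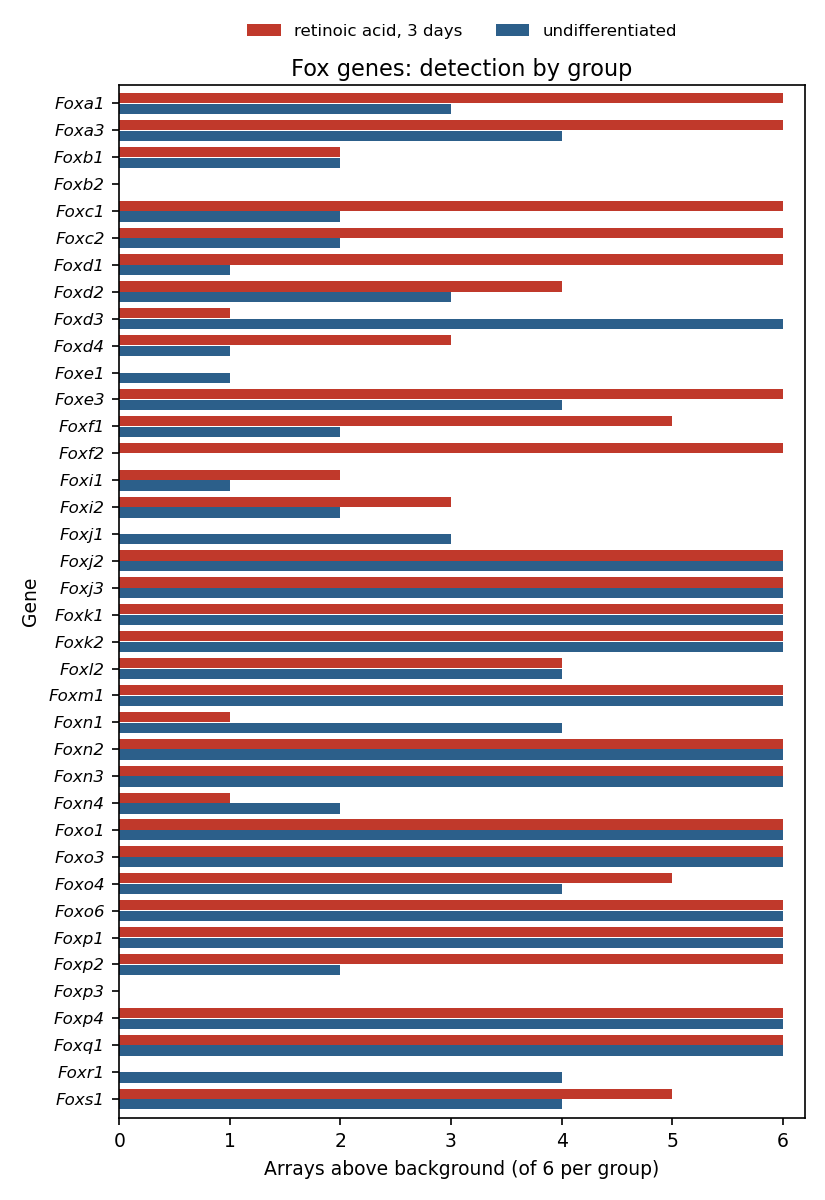
Number of arrays, of 6 per group, on which the brightest probe of each of 38 Fox genes exceeded the background limit, in retinoic acid arrays (red, upper bar) and undifferentiated arrays (blue, lower bar). Foxc1, Foxc2, Foxd1, Foxf2 and Foxp2 reached 6 of 6 retinoic acid arrays and at most 2 of 6 undifferentiated arrays, Foxd3 showed 1 and 6, and Foxb2 and Foxp3 showed no bar.

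**Figure D2:**
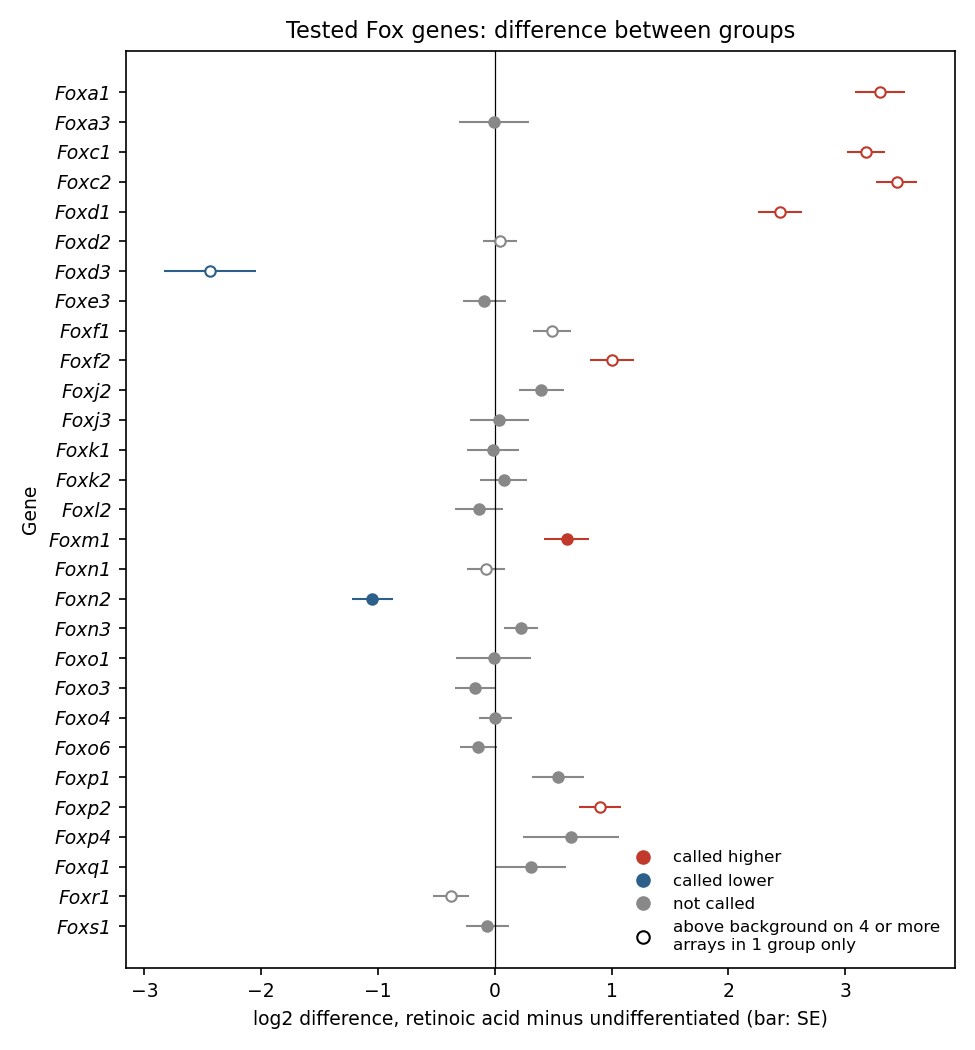
Log2 difference, retinoic acid minus undifferentiated, with its SE, for 29 tested Fox genes in alphabetical order. Red points were called higher, blue points lower and grey points not called, and open points mark genes above background on 4 or more arrays in 1 group only. The 4 largest rises, from 2.44 to 3.44, are those of Foxc2, Foxa1, Foxc1 and Foxd1, and the largest fall, -2.44, is that of Foxd3.

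The mesodermal class C genes gave the clearest rises. Foxc2 and Foxc1 encode closely related factors of paraxial mesoderm, somites, kidney and blood vessels. Foxc2 was at 9.46, 9.66 and 9.30 in retinoic acid replicates 1, 2 and 3, against 5.92, 6.26 and 5.92 in undifferentiated replicates 1, 2 and 3. Foxc1 was at 9.26, 8.95 and 9.37 in the retinoic acid samples, against 6.03, 5.99 and 6.03 in the undifferentiated samples. All 3 retinoic acid samples were high and all 3 undifferentiated samples lay near background for both genes, with 2 of 6 undifferentiated arrays above the limit. Foxc2 rose by 3.44 ± 0.17 (SE; limma, adjusted p = 1.56e-05) and Foxc1 by 3.18 ± 0.16 (SE; limma, adjusted p = 1.56e-05). On the linear scale, the mean intensity of Foxc1 was 540.5 ± 85.9 in retinoic acid samples and 14.8 ± 0.859 in undifferentiated samples, and that of Foxc2 was 665 ± 89.9 and 16.2 ± 9.79 (SD, n = 3 each). With 1 in place of 50 added before log2, the differences were 5.46 for Foxc2 and 5.12 for Foxc1.

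Class F genes, factors of the mesenchyme around gut and lung, neighbour the class C genes in the genome. In the RefSeq annotation Foxq1, Foxf2 and Foxc1 follow each other with 0 protein-coding genes between them, and Foxf1 and Foxc2 have 1 protein-coding gene between them. Foxf2 was at 6.62, 7.16 and 6.60 in the retinoic acid samples, against 5.81, 5.72 and 5.85 in the undifferentiated samples. It rose (1.004 ± 0.19, SE; limma, adjusted p = 0.00539), and because 0 of 6 undifferentiated arrays were above background it was at least 2.93-fold higher. This bound sets the retinoic acid mean against a floor for each undifferentiated array: its dimmest probe above the limit, or Foxf2 itself where brighter, with nothing added before log2. The measured group means were 6.80 and 5.79. Foxf1 was at 6.33, 6.34 and 6.64, against 5.82, 6.06 and 5.97, and although its groups did not overlap it was not called (0.49 ± 0.16, SE; limma, adjusted p = 0.052). It was called in 7 of 21 alternatives, among them 1 or 10 added before log2 (1.78 and 1.14). Foxq1, known for its part in hair and stomach, was at 8.17, 7.88 and 7.88, against 7.41, 8.37 and 7.20. Its groups overlapped and it was not called (0.31 ± 0.30, SE), but without undifferentiated replicate 2 it was (0.67; limma, adjusted p = 0.025). The technical arrays of retinoic acid replicate 1 disagreed for Foxq1 (7.57 and 8.76). With technical array 1 only, its difference was 0.17 and it was not called.

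Markers of mesoderm and of fibroblasts moved with these genes in part. Of 13 tested genes of paraxial and lateral mesoderm 5 were higher, 2 lower and 6 not called (median 0.41). Called were 53.8% of them, against 32.3% of all genes tested. Twist1, a factor of mesenchyme, rose by 2.71 ± 0.18 (SE) and Meox1, a somite factor, by 2.84 ± 0.17 (SE), whereas Tcf15, a somite factor also found in early ES cell commitment, fell by 3.64 ± 0.23 (SE). Summed over the 16 genes on the array, the linear intensity ran from 2418 to 2728 in retinoic acid samples and from 2193 to 3508 in undifferentiated samples, ranges that overlap. Tcf15 made up most of the undifferentiated sums, and the other 15 genes summed to 2312 to 2610 in retinoic acid samples and 754 to 876 in undifferentiated samples. Meox2 was above background on 0 of 6 retinoic acid arrays. Of 12 tested markers of feeder fibroblasts, on which ES cells can be grown, 7 were higher, 1 lower and 4 not called (median 1.502). Here the share called was 66.7%. Tagln rose by 5.25 ± 0.28 (SE), Col1a2 by 3.39 ± 0.19 (SE) and Pdgfrb by 2.47 ± 0.19 (SE), while Thy1 fell by 2.07 ± 0.17 (SE). The second probe of Col1a2 differed by 0.11. The sum over the 14 fibroblast genes on the array ran from 26430 to 33086 in retinoic acid samples and from 6338 to 15114 in undifferentiated samples. Most of it came from Acta2, a smooth muscle actin gene that was not called (0.91 ± 0.43, SE), and Tagln, and the other 12 genes summed to 2883 to 4001 in retinoic acid samples and 1475 to 1810 in undifferentiated samples. Postn was above background on 0 of 6 retinoic acid arrays. The part of other cell types in the rises of Foxc1, Foxc2, Foxf2 and Foxd1 was not tested.

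Foxd1 and Foxd3, members of the same class, moved in opposite directions. Foxd1, a factor of kidney stroma and of the developing retina, was at 8.66, 8.19 and 8.64 in the retinoic acid samples, against 5.97, 5.97 and 6.24 in the undifferentiated samples. It rose by 2.44 ± 0.19 (SE; limma, adjusted p = 6.9e-05), and its second probe differed by 2.16. Foxd3, needed by ES cells and later by neural crest, was at 6.01, 6.23 and 5.92 in the retinoic acid samples, against 8.08, 7.90 and 9.51 in the undifferentiated samples. Every undifferentiated sample was above every retinoic acid sample, and undifferentiated replicate 3 was highest on both technical arrays (9.35 and 9.67). Foxd3 fell by 2.44 ± 0.39 (SE; limma, adjusted p = 0.00267), and 1 of 6 retinoic acid arrays was above background. Without undifferentiated replicate 3 the difference was -1.93.

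Of 14 tested genes of neural crest, 4 were higher, 0 lower and 10 not called (median 0.07). The share called was 28.6%, against 32.3% of all genes tested. The linear intensity summed over the list ran from 5841 to 7737 in retinoic acid samples and from 5315 to 5916 in undifferentiated samples, ranges that overlap. The 2 brightest genes of the list, Erbb3 and Mitf, were not called. The other 12 genes summed to 3740 to 5352 in retinoic acid samples and 2051 to 3003 in undifferentiated samples. Msx1 rose by 3.07 ± 0.20 (SE), although its second probe differed by -0.53, and Ednrb, an endothelin receptor of crest cells, rose by 2.48 ± 0.17 (SE), with 2.07 on its second probe. Sox9, also on the list, was not called on its brightest probe (-0.58 ± 0.26, SE), while its second probe differed by 3.59. Sox10, a defining crest factor, was not called (0.27), nor were Foxd2 (0.04 ± 0.14, SE) and, near background in both groups, Foxd4, which was not tested.

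Foxa1, a pioneer factor of endoderm and of epithelia, rose. It was at 9.84, 9.09 and 9.68 in the retinoic acid samples, against 6.18, 6.32 and 6.22 in the undifferentiated samples, so that the groups lay far apart. The difference was 3.29 ± 0.21 (SE; limma, adjusted p = 3.69e-05), with mean linear intensities of 711 ± 193 in retinoic acid samples and 25.8 ± 3.88 in undifferentiated samples (SD, n = 3 each). Foxa3, another class A factor of liver and gut, did not follow. It was at 6.87, 7.02 and 7.13, against 7.05, 7.62 and 6.37, and was not called (-0.01 ± 0.30, SE). Of 10 endoderm genes tested 4 were higher, 0 lower and 6 not called (median 0.07). The share called was 40%, against 32.3% of all genes tested. Gata6 (4.11 ± 0.34, SE), Sox17 (3.78 ± 0.27, SE) and Sox7 (2.07 ± 0.22, SE), transcription factors of extraembryonic or definitive endoderm, rose, and the second probe of Sox7 differed by 0.20. Ttr and Cer1 were above background on 0 of 6 retinoic acid arrays, and Hnf4a (-0.03) and Afp (-0.41), markers of visceral endoderm and liver, were not called. Summed over the 12 endoderm genes on the array, the linear intensity ran from 5112 to 5801 in retinoic acid samples and from 1071 to 1278 in undifferentiated samples. Most of the retinoic acid sums came from Gata6 and Sox17. The other 10 genes summed to 1414 to 1961 in retinoic acid samples and 809 to 1148 in undifferentiated samples. The part of endoderm cells in the rise of Foxa1 was not tested.

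Promoter sequences are shown for the called genes that the RefSeq table of build GRCm38.p6 holds among Foxa1, Foxc1, Foxd1, Foxf2 and Foxd3, since 4 of these rose together and 1 fell. Each window runs from 250 bases before to 50 after the annotated start, 5′ to 3′ on the gene's strand. Capitals mark 4 motifs on either strand, so that some appear as their reverse complement. CCAAT and the GC box (GGGCGG) are common elements of proximal promoters, the E-box with the letters CACGTG is bound by helix-loop-helix factors, and the forkhead core with the letters TGTTTAC is bound by Fox proteins themselves. The TATA box with the letters TATAAA was searched in the same way and was in none of these 5 windows. The exact letters AGGTCA, a form of the retinoid receptor hexamer, were also in none of them. Other spellings of that hexamer were not searched.
Foxa1, chr12:57546062-57546361, minus strand: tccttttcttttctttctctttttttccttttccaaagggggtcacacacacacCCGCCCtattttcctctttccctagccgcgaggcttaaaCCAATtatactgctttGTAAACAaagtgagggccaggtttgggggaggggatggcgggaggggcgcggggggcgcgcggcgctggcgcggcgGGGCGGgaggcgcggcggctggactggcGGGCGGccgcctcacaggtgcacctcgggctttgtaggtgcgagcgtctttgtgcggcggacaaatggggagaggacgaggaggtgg
Foxc1, chr13:31806396-31806695, plus strand: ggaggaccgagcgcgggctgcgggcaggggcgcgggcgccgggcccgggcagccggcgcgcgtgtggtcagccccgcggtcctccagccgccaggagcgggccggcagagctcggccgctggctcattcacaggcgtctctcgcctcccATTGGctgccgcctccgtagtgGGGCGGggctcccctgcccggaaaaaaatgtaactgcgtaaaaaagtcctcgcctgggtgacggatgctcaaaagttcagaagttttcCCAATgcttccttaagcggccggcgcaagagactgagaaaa
Foxd1, chr13:98353995-98354294, plus strand: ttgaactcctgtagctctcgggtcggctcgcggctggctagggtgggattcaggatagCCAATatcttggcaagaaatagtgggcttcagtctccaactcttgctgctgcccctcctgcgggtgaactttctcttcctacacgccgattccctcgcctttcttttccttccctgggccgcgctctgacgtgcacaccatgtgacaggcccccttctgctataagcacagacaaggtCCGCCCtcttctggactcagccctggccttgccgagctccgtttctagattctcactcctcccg
Foxf2, chr13:31625566-31625865, plus strand: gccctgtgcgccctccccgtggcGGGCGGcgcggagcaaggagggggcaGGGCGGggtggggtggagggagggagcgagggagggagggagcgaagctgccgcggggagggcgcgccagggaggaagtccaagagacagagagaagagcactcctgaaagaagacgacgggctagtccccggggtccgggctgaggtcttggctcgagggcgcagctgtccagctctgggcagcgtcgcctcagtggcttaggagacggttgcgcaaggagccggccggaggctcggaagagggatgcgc
Foxd3, chr4:99656049-99656348, plus strand: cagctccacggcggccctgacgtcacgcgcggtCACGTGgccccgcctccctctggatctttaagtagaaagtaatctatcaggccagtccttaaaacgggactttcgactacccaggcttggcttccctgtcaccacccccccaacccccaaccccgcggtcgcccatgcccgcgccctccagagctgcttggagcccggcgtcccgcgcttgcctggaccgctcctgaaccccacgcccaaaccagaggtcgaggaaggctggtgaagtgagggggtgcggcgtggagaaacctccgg

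The 4 windows of genes that rose each hold at least 1 GC box, with 3 in Foxa1, 2 in Foxf2 and 1 in each of Foxc1 and Foxd1, and the Foxd3 window holds 0 GC boxes and 1 E-box. The search covered 28 windows of 25 Fox genes and all 32851 windows of the table, where a base could count in more than 1 motif. GGGCGG was in 67.9% of the Fox windows and 35.7% of all windows, and CCAAT in 14 of the 28 Fox windows and 37.4% of all windows. Windows of genes not called, such as Foxa3, Foxk2 and Foxo1, also held GGGCGG. CpG dinucleotides had a median of 22 in the Fox windows and 7 in all windows, and Foxc1 had 32, Foxf2 27, Foxa1 26, Foxd3 25 and Foxd1 15. AGGTCA was in 17.9% of the Fox windows (Foxe3, Foxi2, Foxk2, Foxn3 and Foxp3) and 16.3% of all windows. A direct repeat of this hexamer with 5 spacer bases was in 0 Fox windows and in 3 windows of the table. The forkhead core was in 1 Fox window, that of Foxa1, and in 3.65% of all windows. The E-box was in 1 Fox window, that of Foxd3, and in 7.15% of all windows. A match describes these letters and windows and nothing further.

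**Figure D3:**
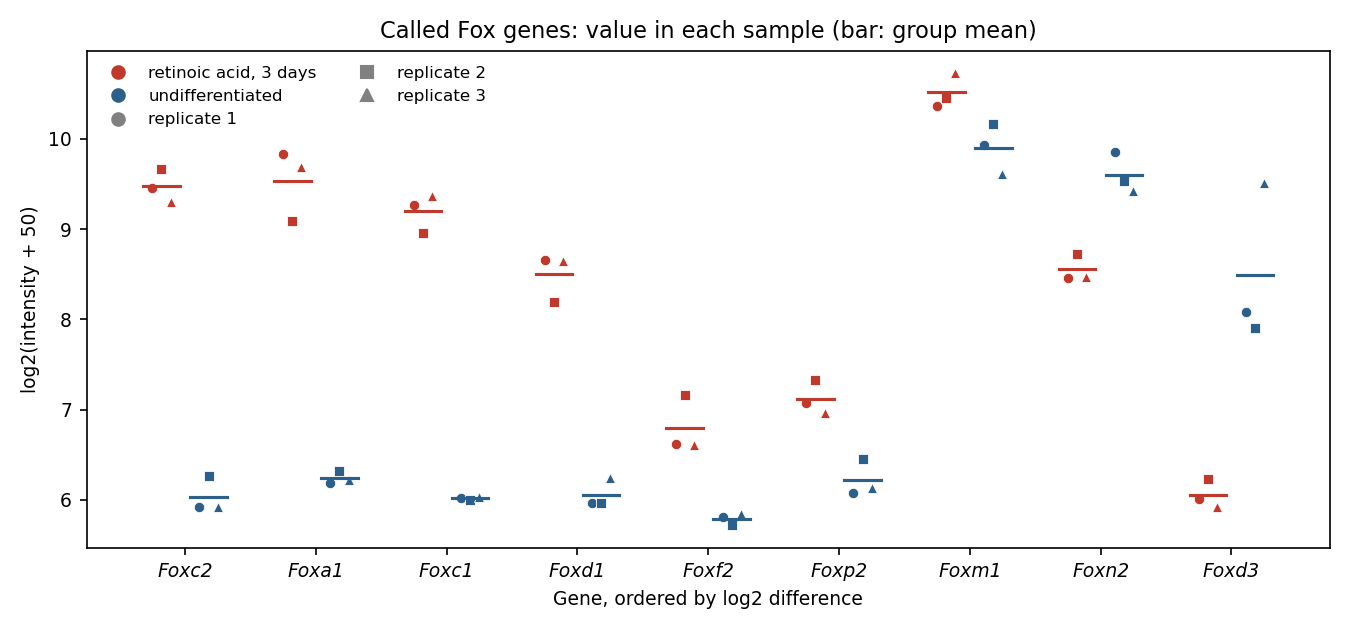
Value of each biological sample, as log2 of the intensity with 50 added, for 9 called Fox genes, with retinoic acid samples (red) left of undifferentiated samples (blue) and a bar at each group mean. Symbols give the replicate number. The groups of each gene shown do not overlap, and the undifferentiated samples of Foxc2, Foxa1, Foxc1, Foxd1 and Foxf2 lie between 5.72 and 6.32.

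Foxp2, known from the developing brain and lung, rose less. It was at 7.07, 7.32 and 6.96 in the retinoic acid samples, against 6.07, 6.45 and 6.13 in the undifferentiated samples, a difference of 0.90 ± 0.18 (SE; limma, adjusted p = 0.00635). A second probe of Foxp2 was above background on 0 of 6 retinoic acid arrays and 2 of 6 undifferentiated arrays and differed by 0.05, and with the mean of both probes the difference was 0.47. Of the other class P genes, Foxp1 was at 11.16, 11.38 and 11.42, against 10.73, 11.20 and 10.40, and was not called (0.54 ± 0.22, SE; limma, adjusted p = 0.1). Its other probes differed by 0.73 and 0.30. Foxp1 was called on the second of these 3 probes (adjusted p = 0.0497), with all 12 arrays and the sample as a random block (adjusted p = 0.0382), and without undifferentiated replicate 2 (0.75; adjusted p = 0.0179). Foxp4 was at 8.06, 6.92 and 8.40, against 7.15, 6.61 and 7.67, and was not called (0.65 ± 0.41, SE), with 0.74 on its second probe. Replicate 2 was the lowest of Foxp4 in both groups, and without retinoic acid replicate 2 it was called (1.09; limma, adjusted p = 0.0445). Foxp3, the factor of regulatory T cells, was above background on 0 of 12 arrays.

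Foxm1, which drives genes of G2 and mitosis, was at 10.36, 10.45 and 10.73 in the retinoic acid samples, against 9.93, 10.16 and 9.61 in the undifferentiated samples. The difference of 0.62 ± 0.19 (SE; limma, adjusted p = 0.0438) was just past the threshold, and a second, dim probe differed by 0.22. The call was lost in 13 of 21 alternatives, among them 75th percentile (0.48) and median scaling (0.52) and the fits without any 1 sample other than undifferentiated replicate 2. Of 18 tested genes that FOXM1 is known to activate, 1 was higher, 0 lower and 17 not called, and the median was 0.07. The share called was 5.56%, against 32.3% of all genes tested. Cdc25b, a phosphatase that starts mitosis, rose by 1.10 ± 0.21 (SE), whereas the mitotic kinase gene Plk1 (0.46 ± 0.25, SE) and the cyclin gene Ccnb1 (-0.18 ± 0.14, SE) were not called.

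Foxn2 fell on its brightest probe. It was at 8.46, 8.73 and 8.47 in the retinoic acid samples, against 9.85, 9.53 and 9.42 in the undifferentiated samples, a difference of -1.05 ± 0.17 (SE; limma, adjusted p = 0.00304). Its other 2 probes, which carry other transcript accessions on the array, were above background on at most 2 of 6 arrays of a group and differed by 0.01 and -0.16. With the mean over the 3 probes the difference was -0.40. Foxn2 was the 1 gene of the family whose probes spanned more than 1 in log2 difference. Foxn3, a related gene, was not called (0.22 ± 0.15, SE), with 0.01 and 0.23 on its other probes.

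**Figure D4:**
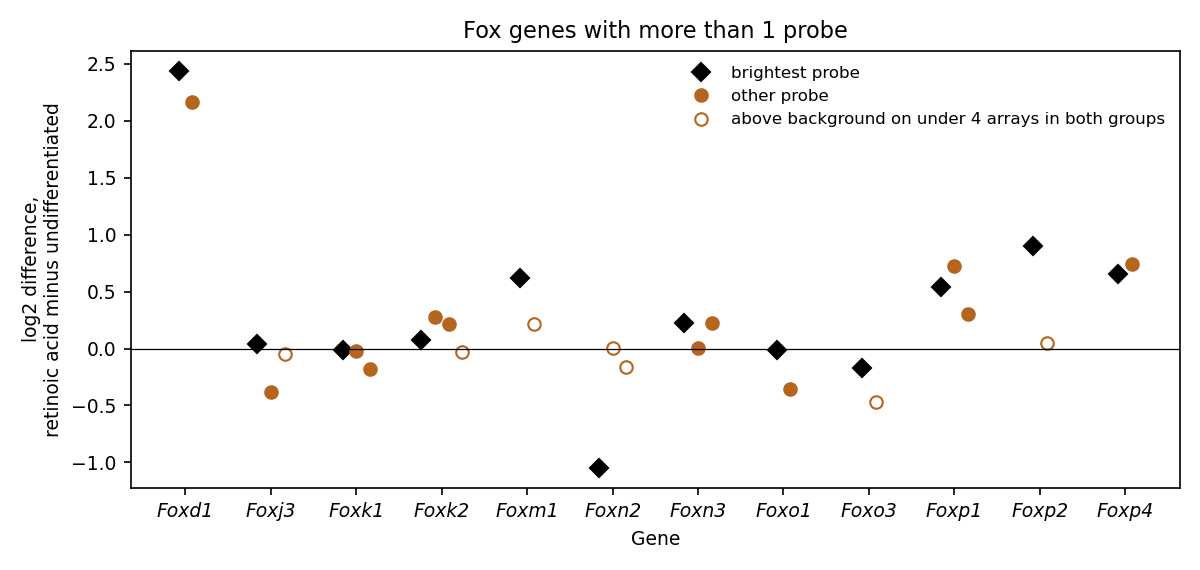
Log2 difference, retinoic acid minus undifferentiated, of each probe of the 12 Fox genes with more than 1 probe. Diamonds are the brightest probe of a gene and circles its other probes, open where the probe was above background on under 4 arrays in both groups. The 2 probes of Foxd1 lie at 2.44 and 2.16, while Foxn2 runs from -1.05 to 0.01.

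The class O genes, most of whose proteins AKT keeps out of the nucleus, were not called. Foxo1 was at 10.86, 11.20 and 10.81 in the retinoic acid samples, against 11.08, 11.58 and 10.25 in the undifferentiated samples (-0.01 ± 0.32, SE), and its second probe differed by -0.35. Foxo3 was at 6.58, 6.21 and 6.56, against 6.77, 6.47 and 6.64 (-0.17 ± 0.17, SE). Foxo6 was at 8.10, 7.76 and 7.83, against 8.13, 8.01 and 7.98 (-0.14 ± 0.16, SE), and Foxo4, dim in both groups, differed by 0.01 ± 0.14 (SE). The groups of Foxo1, Foxo3, Foxo4 and Foxo6 overlapped. A second probe of Foxo3 stood at 7.37 in undifferentiated replicate 1 and between 5.91 and 6.11 in the other 5 samples.

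Around the class O factors, genes moved both ways. Of 14 tested genes of insulin and AKT signalling 4 were higher, 3 lower and 7 not called (median -0.0007). The share called was 50%, against 32.3% of all genes tested. Irs1, an adaptor of the insulin receptor, rose by 3.61 ± 0.24 (SE; 0.16 on a second probe), and Igf1r, the receptor of insulin-like growth factor, by 1.82 ± 0.15 (SE; 1.81 on a second probe). The kinase gene Sgk1 fell by 3.44 ± 0.35 (SE; 0.0018 on a second probe), Akt2 by 0.70 ± 0.14 (SE; -0.06 on a second probe) and Sgk3 by 0.65 ± 0.15 (SE; 0.01 on a second probe). Of 14 tested FOXO target genes 5 were higher, 2 lower and 7 not called (median -0.08). Here too 50% were called. Fbxo32, a ubiquitin ligase gene, rose by 1.63 ± 0.24 (SE), Sesn3 by 1.34 ± 0.20 (SE) and the cyclin gene Ccng2 by 1.13 ± 0.26 (SE), while Trim63, another ubiquitin ligase gene, fell by 2.35 ± 0.25 (SE) and Sod2, the mitochondrial superoxide dismutase gene, by 2.01 ± 0.17 (SE).

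Broadly expressed members of classes J and K did not pass the test either. Foxk1 and Foxk2 encode repressors found in most tissues. Foxk2 was at 10.81, 10.18 and 10.52, against 10.30, 10.63 and 10.35 (0.08 ± 0.20, SE), and its other 3 probes differed by 0.28, 0.21 and -0.03. Foxk1 was at 6.94, 7.32 and 7.13, against 7.15, 7.53 and 6.76 (-0.02 ± 0.22, SE), with -0.02 and -0.18 on its other probes. Foxj3 was at 10.03, 10.005 and 9.69, against 9.32, 10.26 and 10.03 (0.04 ± 0.25, SE), with -0.38 and -0.05 on its other probes, and Foxj2 was at 8.24, 7.81 and 7.87, against 7.30, 7.75 and 7.69 (0.40 ± 0.19, SE; limma, adjusted p = 0.16). The groups of Foxk1, Foxk2 and Foxj3 overlapped. Those of Foxj2 did not, the lowest retinoic acid sample lying just above the highest undifferentiated one.

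Foxj1, the main switch of motile cilia, was above background on 0 of 6 retinoic acid arrays and 3 of 6 undifferentiated arrays and was not tested (6.003, 5.82 and 5.94, against 6.32, 6.39 and 6.24). Without the filter on dim probes Foxj1 was called lower (-0.39), on values near background. Of 10 tested genes of motile cilia 0 were higher, 2 lower and 8 not called (median -0.21). Called were 20% of them, against 32.3% of all genes tested. Rfx2, a ciliary transcription factor, fell by 2.29 ± 0.24 (SE; -0.20 on a second probe) and Tekt1, a gene of the axoneme, was lower (-1.94 ± 0.14, SE; -1.57 on a second probe).

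The remaining tested members were dim and not called: Foxe3 of the lens (-0.09 ± 0.18, SE), Foxl2 of the ovary (-0.14 ± 0.20, SE), Foxn1 of the thymus (-0.08 ± 0.16, SE), Foxs1 (-0.06 ± 0.18, SE) and Foxr1 (-0.38 ± 0.16, SE; limma, adjusted p = 0.106). Foxr1 was above background on 0 of 6 retinoic acid arrays and 4 of 6 undifferentiated arrays, and was called lower with 1 or 10 added before log2 and without undifferentiated replicate 3. Besides Foxd4, Foxj1 and Foxp3, the genes not tested were Foxb1, Foxb2, Foxe1, Foxi1, Foxi2 and Foxn4, and the 9 differed by -0.39 to 0.64. The upper end is Foxi1, which stood at 8.49 and 7.83 on technical array 2 of retinoic acid replicates 1 and 3 but at 5.74 and 5.79 on technical array 1 of the same samples, so its technical arrays disagree.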

How the data were processed

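The labels describe Cy3 labelling of total RNA after a single amplification round. The deposited scanner tables hold linear net mean intensity, per the file headers, with background already taken off by a method that the sources do not state. The header of the table of undifferentiated replicate 2, technical array 2, names technical array 1 of that sample, and the values of both differ. The authors also deposited a table of processed intensity, which correlated at r = 0.999997 or more with the quantile-normalized log2 values and served as an alternative; R 2.15.0 and limma are named in the submitters' processing notes.

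Probes were named by accession through the RefSeq gene table of GRCm38.p6, otherwise by symbol. Intensities of the 41174 probes were quantile-normalized between arrays, technical arrays averaged, and the groups compared with limma 3.58.1 in R 4.3.3 (lmFit and eBayes, two-sided, Benjamini-Hochberg adjustment over 15326 genes), a fit that was tested on simulated data. The 27 negative control spots were taken by their names from the control spots of the array. Named with values were called Fox genes, Fox genes above background on all 12 arrays, and up to 3 called genes per direction of each other list; any further gene was picked with its values in view. Of the genes this rule names, 2 are not reported here, though all counts include them. The members and lists were chosen with earlier results of these data known. Alternatives covered scaling, the added value, the filter, probes, technical arrays, the replicate block, the variance model, the threshold and each sample left out; leaving out the array with the doubtful header was chosen after the data were examined. In the quantile-normalized values, same-numbered samples correlated at -0.06, 0.22 and 0.07 in their deviations from the group means. The main fit did not pair them. Before normalization the replicate 3 arrays were the brightest in both groups. Their medians were 67.0 and 67.3 (undifferentiated) and 96.6 and 93.5 (retinoic acid), against 37.4 to 57.8 on the other arrays. Quantile normalization removes such shifts, so these correlations cannot settle whether replicate numbers mark shared processing. Python 3.11.15 and matplotlib 3.10.9 served for tables and figures.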

Additional observations from a re-analysis of the deposited data

How the results depend on the processing

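Of the 10 called Fox genes 9 were called in each alternative that could test them, and Foxm1 was not. A gene with 1 probe kept that probe in the second-probe and probe-mean settings, so its difference could not change there. The second probes of Foxm1, Foxn2 and Foxp2 were too dim to be tested. Of the 20 not called, 15 stayed uncalled throughout and 5 (Foxf1, Foxp1, Foxp4, Foxq1 and Foxr1) were called in at least 1. Without the filter on dim probes all 39 Fox genes were tested, and 8 were higher and 3 lower. The lower ones were Foxd3, Foxn2 and Foxj1, which the main fit did not test. No called difference changed sign. Under a filter that required all 12 arrays above background, 14 Fox genes were tested, 2 were higher and 1 lower, where 2061 of all 11981 genes tested were higher and 1737 lower; the filter left out 7 of the 10 called Fox genes. With second brightest probes 1 was lower, since that probe of Foxn2 is dim. Leaving out each sample in turn gave 7 to 11 higher and 2 to 3 lower genes; the 11, with Foxf1, Foxp1 and Foxq1, came without undifferentiated replicate 2. The median difference ran from 0.02 to 0.26. With 1 added before log2, 6 called differences grew by over 1.5 times: Foxc1 (5.12), Foxc2 (5.46), Foxd1 (4.23), Foxf2 (3.40), Foxp2 (1.87) and Foxd3 (-4.29). With the replicate block 8 genes were higher and 2 lower: Foxm1 lost its call (adjusted p = 0.0749) and Foxp4 gained one (adjusted p = 0.0409). Of all genes, 1326 were lower when retinoic acid replicate 1 was left out and 1228 when replicate 3 was, against 2083; scaling arrays to their 75th percentile gave 2435 higher and 2633 lower, against 2872 and 2083. Signals near background limit what can be said of the 9 untested genes.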
